A study of Mus musculus with 2 samples.

Results

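Cluster 11 is a group of natural killer (NK) cells that the authors' deposited clustering set apart, and it was made up almost wholly of tumour cells rich in RNA. Its members were the cells of that cluster number whose deposited hashtag call was other than doublet. They were 89 of 7479 such cells, or singlets, in a matrix of 13118 cells. The study sorted NK cells (Lineage-, NK1.1+, CD49b+) from C57BL/6 mice aged 12 weeks that carried subcutaneous tumours of MC38, a mouse colon carcinoma line. The groups used here are the fasted, the refed and the ad libitum tumour populations, with the spleen and bone marrow populations of the same 3 feeding states and a naive spleen population as part of the rest. The labels speak of a cyclic fasting diet and an ad libitum diet, and the tag list gives the names fasted and refed. The sources used here do not say what naive stands for, when in the cycle the refed cells were taken or how many mice gave each population. Hashtagged cells of all populations were run in 1 lane. Each population was therefore 1 sample. No difference could be checked against replicates, and p-values were not computed. Intervals cover counting error only, not differences between mice or cells.

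NK cells kill by releasing granules that hold perforin, which opens the target cell, and granzymes, serine proteases that then enter it. Granzymes A and B are the best known. The mouse carries further granzyme genes, among them Gzmc, Gzmd, Gzme, Gzmf and Gzmg, which lie beside Gzmb in 1 gene cluster. These further granzymes are known mainly from strongly activated mouse lymphocytes, whereas a resting NK cell makes mostly granzyme A.

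Of the 89 members, 51 came from fasted tumours, 25 from refed tumours and 9 from ad libitum tumours. The other 4 were 2 ad libitum and 2 refed spleen cells. Tumour cells thus made up 95.5% of the cluster (95% Clopper-Pearson interval 88.9 to 98.8%). The cluster held 6.37% of fasted tumour cells (51 of 801, interval 4.78 to 8.29%), 26.3% of refed ones (25 of 95, 17.8 to 36.4%) and 19.6% of ad libitum ones (9 of 46, 9.36 to 33.9%). The share was lower in fasted tumours, and the refed and ad libitum intervals overlapped. None of 136 fasted, 337 refed and 575 ad libitum bone marrow cells was a member. The intervals allow shares of up to 2.68%, 1.09% and 0.639% in the same order.

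The members were the deepest cells of the tumour beside those of cluster 10. Their median was 26877 UMIs (unique molecular identifiers, each standing for 1 captured transcript), with a range of 974 to 46030. The median over the 7390 singlets of all other clusters was 4378.5 UMIs, over the 231 tumour cells of cluster 8 it was 6760, and over the 332 tumour cells of cluster 0 it was 4860. The plot of UMIs per cell shows that 10 members lay below 10000 UMIs. Of the classified cells of cluster 11, 62.9% were hashtag doublets (151 cells), against 42.8% over the whole matrix, 59.0% in cluster 8 and 80.3% in cluster 0. The doublets had a median of 26419 UMIs, close to that of the singlets. They also carried Gzmc at 25295 CPM (UMIs per 1000000 of the group), Gzmd at 3110 and Gzme at 1405, against 996, 33.9 and 24.5 CPM in doublets of the other clusters. Members in which 2 cells of the same population shared a droplet cannot be seen from hashtags, and their part in the UMI counts was not tested.

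**Figure D1:**
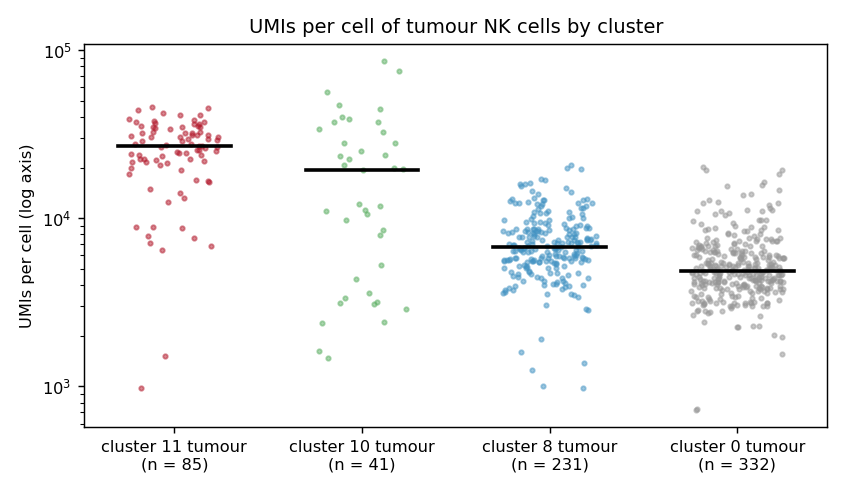
UMIs per cell (log axis) of the tumour singlets of clusters 11, 10, 8 and 0; each point is a cell and each black line the median. Cluster 11 has a median of 26877 UMIs, above 6760 in cluster 8 and 4860 in cluster 0, and cluster 10, with 41 tumour cells, spreads over the whole range.

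The leading genes of the cluster, Gzmc, Gzmd and Gzme, are given as its markers and lie on chromosome 14, minus strand (GENCODE M21, GRCm38). Gzmc is at chr14:56231441-56234656, Gzmd at chr14:56129556-56132608 and Gzme at chr14:56117626-56120625, all protein coding. Their promoters (RefSeq, GRCm38.p6) are printed because the 3 genes were high together. Each runs from 250 bases before to 50 bases after the start site, at chr14:56234608-56234907, chr14:56132544-56132843 and chr14:56120576-56120875, on the minus strand. Capitals mark TGTGGT on either strand (ACCACA on the other), the letters that RUNX factors bind.
Gzmc promoter: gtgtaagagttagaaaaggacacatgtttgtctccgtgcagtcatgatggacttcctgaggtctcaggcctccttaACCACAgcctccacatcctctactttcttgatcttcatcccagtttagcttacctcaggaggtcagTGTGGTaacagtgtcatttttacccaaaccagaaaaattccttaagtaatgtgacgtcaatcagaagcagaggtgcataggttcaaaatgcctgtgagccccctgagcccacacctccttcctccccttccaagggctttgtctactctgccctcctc
Gzmd promoter: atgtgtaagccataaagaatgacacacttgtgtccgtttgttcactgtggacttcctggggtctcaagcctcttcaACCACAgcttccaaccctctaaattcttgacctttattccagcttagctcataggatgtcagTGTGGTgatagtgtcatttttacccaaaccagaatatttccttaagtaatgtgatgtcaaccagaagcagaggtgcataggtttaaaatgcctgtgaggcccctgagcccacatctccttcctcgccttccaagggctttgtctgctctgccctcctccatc
Gzme promoter: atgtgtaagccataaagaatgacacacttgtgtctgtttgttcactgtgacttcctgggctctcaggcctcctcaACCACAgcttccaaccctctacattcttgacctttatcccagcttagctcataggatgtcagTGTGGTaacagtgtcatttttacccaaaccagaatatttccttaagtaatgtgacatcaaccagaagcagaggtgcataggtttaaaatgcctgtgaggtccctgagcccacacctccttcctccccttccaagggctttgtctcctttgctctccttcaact
The Gzmd and Gzme windows were 93.4% identical in a pairwise alignment, and the Gzmc and Gzmd windows 82.7%. Each held 2 copies of TGTGGT, as did those of Gzmf, Gzmg and Gzmb, and that of Gzmn held none. The motif was found in 16.8% of 32851 promoter windows of the same length. TTCNNNGAA, the letters of STAT sites, was in none of the windows of Gzmc to Gzmg and in 8.30% of all. These matches are descriptions of letters, not of binding.

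The transcripts are alike too, which bears on the counts. Gzmd and Gzme transcripts were 90.0% identical, and shared 7 windows of 90 bases, the length of the sequenced read. Gzmd and Gzmg shared 12 such windows and Gzme and Gzmg 1, while Gzmc shared none with any of the others. The split of reads between Gzmd, Gzme and Gzmg is therefore uncertain, and the level of Gzmc is not touched by it.

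Gzmc was present in every member. In the 85 tumour members it ranged from 8626 to 123970 CPM per cell, with a median of 25142. In the 231 tumour cells of cluster 8 the median was 117 CPM and the highest cell had 33192, and in the 332 tumour cells of cluster 0 the median was 0 and the highest 9656. Gzmc made up at least 1% of all UMIs in 84 of the 85 tumour members, in 7 of 231 cluster 8 cells and in 0 of 332 cluster 0 cells. The members thus sat almost wholly above the range of cluster 0, and overlapped a few cells of cluster 8. Outside the cluster, 25 of 7390 singlets reached that level. They were tumour cells without exception: 13 of 750 fasted, 6 of 70 refed and 6 of 37 ad libitum cells.

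**Figure D2:**
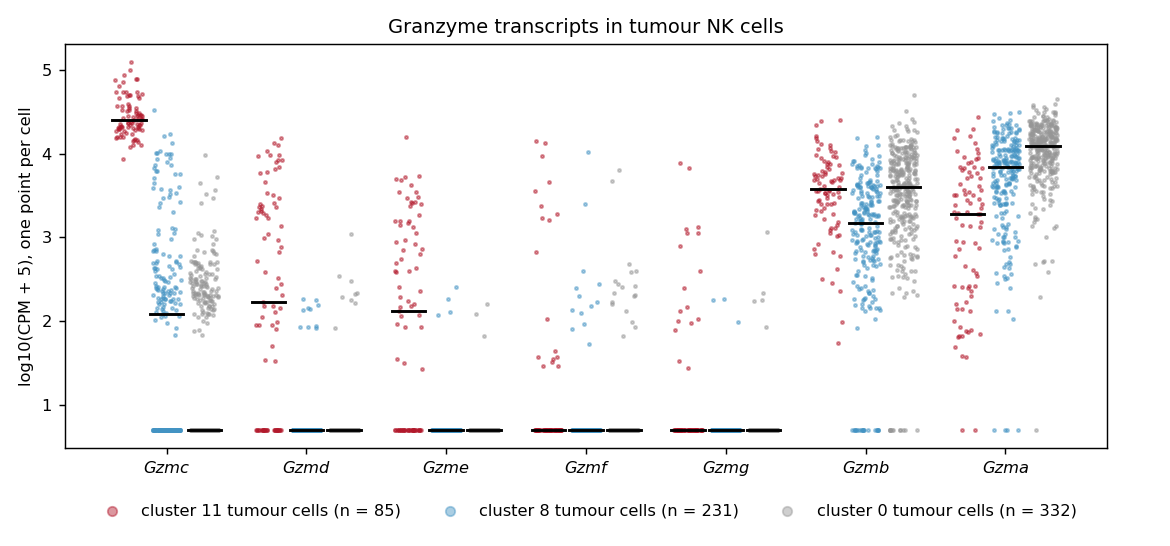
Level of 7 granzyme transcripts, as log10(CPM + 5), in each tumour cell of cluster 11 (left in each group of 3), cluster 8 (middle) and cluster 0 (right); black lines are medians. Gzmc stands apart in cluster 11, Gzmd and Gzme reach high levels in part of its cells, and Gzma is lower there than in the other clusters.

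Gzmd and Gzme divided the cluster. Gzmd was detected in 56 of 85 tumour members, from 0 to 15507 CPM with a median of 163, and Gzme in 51, from 0 to 15948 CPM with a median of 129. Both were seen in 49 cells, Gzmd without Gzme in 7, Gzme without Gzmd in 2, and neither in 27. The cells with neither were not those of lowest depth alone: among the 75 members with at least 10000 UMIs, 23 had neither. Cells with neither had a median of 21559 UMIs and 20241 CPM of Gzmc, against 30354 UMIs and 28966 CPM in cells with both. Gzmf was seen in 18 and Gzmg in 17 of the 85 cells, and all 4 of Gzmd, Gzme, Gzmf and Gzmg in 11. Across the 85 cells the levels of Gzmd and Gzme had a Spearman correlation of 0.88, which shared reads can raise, and those of Gzmc and Gzmd one of 0.33. Gzmc and Gzma had a correlation of -0.17. These points share their library and differ in depth.

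Depth was then made equal by thinning each cell to 1500 UMIs, which left out 1 member, 4 cells of cluster 8 and 2 of cluster 0. Gzmc was still found in 84 of 84 tumour members, against 70 of 227 cells of cluster 8 and 65 of 330 of cluster 0. Gzmd was found in 40 of 84 (47.6%, interval 36.6 to 58.8%), against 0 of 227 in cluster 8 and 2 of 330 in cluster 0. Gzme was found in 33 of 84, against 0 of 227 and 1 of 330. Of 40 thinned tumour cells of cluster 10, the other deep cluster, 14 had Gzmc (35%), 5 had Gzmd (12.5%) and 3 had Gzme (7.5%). The shares thus differed at equal depth as well. Before thinning Gzmd was seen in 10 of 231 cells of cluster 8 and 9 of 332 of cluster 0.

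For comparisons across genes, UMIs were summed over the cells of a group and given as CPM, and a difference is the log2 ratio of CPM + 5, which understates the change of low genes. A gene was tested when it had at least 20 CPM in 1 of the groups. It was called higher or lower when its 95% counting interval left out equality and the log2 ratio was 1 or more in size. Because the authors' clusters were built from these same genes, all ratios between clusters are descriptions.

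Clusters 8 and 0 differ from cluster 11 in feeding as well, since 222 of 231 tumour cells of cluster 8 and 301 of 332 of cluster 0 were fasted, against 51 of 85 in cluster 11. Against tumour cells of cluster 8, 242 of 4959 tested genes were higher in cluster 11 (4.88%) and 255 were lower (5.14%). Against those of cluster 0, 369 of 5300 were higher (6.96%) and 824 lower (15.5%). With TMM factors the second split was 555 higher and 595 lower, and with totals free of ribosomal protein and mitochondrial genes it was 695 and 742. Both scalings moved the median of all genes by 0.17 in that comparison. Against all other singlets 238 of 5506 were higher (4.32%) and 765 lower (13.9%), and with TMM factors, which moved the median by 0.24, the split was 385 and 433. Among fasted tumour cells alone, 257 genes were higher and 304 lower against cluster 8, and 410 and 946 against cluster 0. After thinning the split was 388 and 640 against all other singlets, and 406 and 577 against cluster 0.

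Among the granzymes, 7 of the list's 10 genes were tested against either tumour cluster. Against cluster 8, 6 of the 7 were higher and 1 was lower, and against cluster 0, 5 were higher and 1 lower. Of all tested genes, 4.88% were higher and 5.14% lower against cluster 8, and 6.96% and 15.5% against cluster 0. Gzmc reached 29962 CPM in tumour cells of cluster 11, against 1577 in cluster 8 and 299 in cluster 0 (log2 ratios 4.24 and 6.62). Gzmd had 2578 CPM, against 6.38 and 14 CPM (7.83 and 7.09). Gzme had 1065 CPM, against 2.32 and 1.61 CPM (7.19, interval 6.61 to 7.57, and 7.34, interval 6.78 to 7.65), which in the comparison groups are 4 and 3 UMIs. Gzmf had 805 CPM, against 92.2 and 53.7, and Gzmg 368, against 1.74 and 12.3. In cluster 11 the highest cell alone gave 33.7% of the Gzmf and 42.9% of the Gzmg UMIs, so these sums speak for few cells.

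The classical granzymes behaved otherwise. Gzmb had 5161 CPM, against 2422 in cluster 8 and 5949 in cluster 0, and was higher than in cluster 8 (log2 ratio 1.09) but not called against cluster 0 (-0.20). Gzma had 3442 CPM, against 7318 and 13004, and was lower in both comparisons (log2 ratios -1.09 and -1.92). Gzmk had 1 UMI and Gzmm 7 UMIs in all tumour members. Prf1, perforin, had 510 CPM, against 169 in cluster 8 (log2 ratio 1.57) and 279 in cluster 0 (0.86, not called). Of the other proteins of the cytotoxic granule and its release, 1 of 13 tested genes was called against cluster 8, which was Prf1, and 2 of 14 against cluster 0, where Cst7, a cystatin, was higher (1.00) and Lyst, a regulator of lysosome traffic, lower (-1.89). The list's medians were 0.17 and 0.00, beside -0.02 and -0.19 over all genes. The shares over all genes were 4.88% higher and 5.14% lower against cluster 8, and 6.96% and 15.5% against cluster 0.

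**Figure D3:**
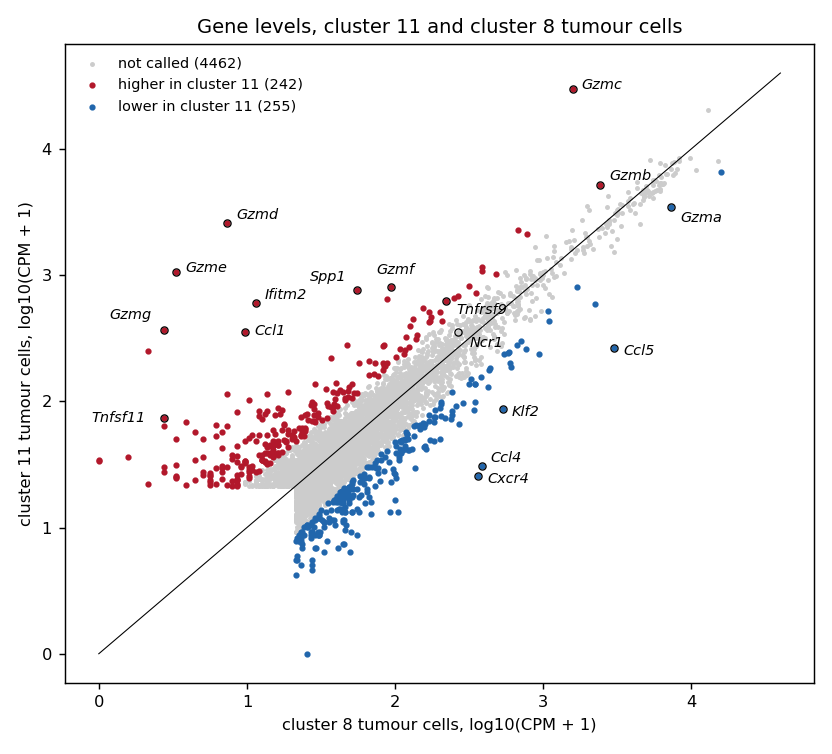
Each point is a gene tested between tumour cells of cluster 11 (vertical axis) and cluster 8 (horizontal axis), both as log10(CPM + 1); red marks the 242 genes called higher and blue the 255 called lower in cluster 11. Gzmd and Gzme lie far above the line of equal levels, at log2 ratios of 7.83 and 7.19, and Ccl5 and Cxcr4 far below it, at -3.49 and -3.64.

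The identity of the cells was checked against markers. Klrd1, the CD94 receptor chain, had 1040 CPM in tumour members, against 1140 in cluster 8 and 1042 in cluster 0, and Ncr1, the activating receptor NKp46, had 350, against 267 and 297. Eomes, a transcription factor of NK cells, had 98.3 CPM, against 126 and 170. Klrb1c, which encodes the NK1.1 antigen of the sort, was lower at 128 CPM, against 421 and 467 (log2 ratios -1.68 and -1.83). Itga2, the CD49b antigen of the sort, had 4.08 CPM, against 7.54 and 24.1. After thinning, Klrd1 was found in 64 of 84 members, against 172 of 227 and 242 of 330 cells, shares of 76.2%, 75.8% and 73.3%. Klrb1c was found in 16 of 84 (19.0%), against 98 of 227 (43.2%) and 166 of 330 (50.3%). Itga2 was found in 0 of 84, against 3 of 227 and 9 of 330. Ncr1 was found in 32 of 84 (38.1%), against 64 of 227 (28.2%) and 109 of 330 (33.0%). Against cluster 8, 1 of 14 tested genes of NK identity was lower, beside 5.14% of all genes, and against cluster 0, 6 of 15 were lower, beside 15.5%, with none higher in either. The 9 NK markers, Gzma among them, summed to 7706 CPM, against 12837 in cluster 8 and 19534 in cluster 0, and so were lower as a sum. The 6 markers of type 1 innate lymphoid cells (ILC1) summed to 86.6 CPM, against 87.5 in cluster 8 and 83.2 in cluster 0. In members 4 of the 6 were seen, Il7r and Cxcr6 being at 0, while Itga1, an integrin of these cells, was higher at 37.6 CPM, against 13.9 and 6.44. The 10 T cell markers summed to 633 CPM, against 922 in cluster 8 and 1023 in cluster 0, with Cd4, Cd8a, Cd8b1 and Cd5 at 0 and 1 UMI of Cd3e. Cd3g, a chain of the T cell receptor complex, was higher in refed members than in other refed tumour cells (48.0 against 19.2 CPM, log2 ratio 1.13). Cd3d, another such chain, was higher in ad libitum members (65.8 against 14.5 CPM, 1.86), where 93.3% of its UMIs were from 1 cell. The T cell receptor constant gene Trbc1, which NK cells can also transcribe, had 421 CPM, against 542 and 646. The summed macrophage markers came to 119 CPM, of which 92.0% was 1 refed cell.

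Several of the genes highest in cluster 11 beside the granzymes encode secreted or surface proteins. Spp1, the secreted phosphoprotein osteopontin, had 758 CPM, against 54.5 in cluster 8 and 27.9 in cluster 0 (log2 ratios 3.68 and 4.54). It was found in 33 of 84 thinned members, against 8 of 227 and 7 of 330 cells. Ccl1, a chemokine, had 356 CPM, against 8.70 and 11.3, and 40.1% of its UMIs were from 1 cell. Tnfsf11, the cytokine RANKL, had 72.5 CPM, against 1.74 in cluster 8, and was at least 45-fold higher than in cluster 0, where it had no UMI (floor of 3 UMIs over the group). Sema6d, a semaphorin, had 68.0 CPM, against 2.90 and 1.61. Tnfrsf9, the costimulatory receptor 4-1BB, had 617 CPM, against 219 and 282, and was found in 45 of 84 thinned members, against 56 of 227 and 68 of 330 cells. Klrg1, an inhibitory receptor, had 48.9 CPM, against 4.06 and 11.8. Among the other highest genes were Mt1, a metallothionein, S100a4, a calcium-binding protein, Basp1, a membrane-associated protein, and Myo10, an unconventional myosin, with log2 ratios of 2.78, 2.45, 3.37 and 3.32 against cluster 8 and 3.30, 3.05, 2.06 and 2.43 against cluster 0. In Basp1, 31.0% of the UMIs were from 1 cell. Within ad libitum tumours, Spp1, Tnfsf11 and S100a4 were higher than in the other tumour cells (log2 ratios 2.57, 1.36 and 1.20). There, 1 member held 11 of the 12 Tnfsf11 UMIs. Klrg1 (-0.23), Sema6d (0.49), Tnfrsf9 (0.66), Mt1 (0.50), Myo10 (0.62) and Basp1 (-0.27) were not called in that population, and Ccl1 was too low to be tested.

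The genes lowest in cluster 11 included chemokines that NK cells are known to secrete. Ccl5, a chemokine, had 262 CPM, against 2999.7 in cluster 8 and 13890 in cluster 0 (log2 ratios -3.49 and -5.70). It was found in 17 of 84 thinned members (20.2%), against 190 of 227 (83.7%) and 324 of 330 (98.2%) cells. Ccl4 had 29.9 CPM, against 384 and 3947, and Ccl3 had 15.4, against 99.1 and 795. Xcl1, which attracts dendritic cells, had 1693 CPM, against 1184 and 2357, and was not called. Ifng, interferon gamma, was lower at 97.9 CPM, against 203 and 721 (log2 ratios -1.02 and -2.82). Of 9 tested cytokines and chemokines, 2 were higher and 5 lower in either comparison, the higher ones being Ccl1 and Spp1. The shares over all genes were 4.88% higher and 5.14% lower against cluster 8, and 6.96% and 15.5% against cluster 0. Cxcr4, the receptor for Cxcl12, had 24.5 CPM, against 362 and 586 (-3.64 and -4.33). Klf2, a transcription factor of quiescence and exit from tissues, had 86.6 CPM, against 533 and 1135 (-2.55 and -3.64).

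Interferon-induced genes went in different directions. Ifit3, an antiviral protein, had 12.2 CPM, against 104 in cluster 8 and 300 in cluster 0 (log2 ratios -2.66 and -4.15), and Ifit1, Ifit2, Irf7, Rtp4, Zbp1, Oasl2 and Rsad2 were also lower in both comparisons. Of the list, 3 transmembrane proteins were higher. Ifitm2 had 603 CPM, against 10.4 and 31.7, and Ifitm3 643, against 87.0 and 239. Ifitm1 had 251 CPM, against 1.16 and 37.6, with 44.0% of its UMIs from 1 cell of cluster 11 and 91.4% from 1 cell of cluster 0. Within ad libitum tumours, Ifitm3 was lower in members at 268 CPM, against 812 in the other tumour cells (log2 ratio -1.58), and Ifitm2 had 478, against 954 (-0.99, not called). Those other cells were 37, and 1 of them held 75012 of their 343756 UMIs. Ifitm2 was also frequent in tumour cells of cluster 10, where 24 of 40 thinned cells had it (60.0%), against 30 of 84 members (35.7%) in cluster 11. Of 23 tested genes of the list, 3 were higher and 9 lower against cluster 8 (median -0.63), and 3 were higher and 16 lower against cluster 0 (median -1.73). Higher and lower shares over all genes were 4.88% and 5.14% against cluster 8, and 6.96% and 15.5% against cluster 0.

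Many genes of glycolysis, of lipid synthesis and of protein folding were higher in cluster 11 than in clusters 8 and 0. Of 14 tested glycolysis genes, 9 were higher and none lower in either comparison, with medians of 1.19 against cluster 8 and 1.21 against cluster 0. The higher shares over all genes were 4.88% against cluster 8 and 6.96% against cluster 0. Ldha, lactate dehydrogenase, had 1146 CPM, against 383 and 350, Gapdh, a central glycolytic enzyme, had 2118, against 770 and 643, and Slc16a3, a lactate exporter, had 56.2, against 5.8 and 13.4. Of 10 tested hypoxia-induced genes, 6 were higher against cluster 8 and 5 against cluster 0, where Vegfa, a vascular growth factor, was lower (140, against 318 CPM). Ero1l, an oxidase of the endoplasmic reticulum, had 135 CPM, against 27.8 and 24.1. Its sum in members leaned on 1 refed cell with 143 UMIs, the next highest member having 15. Of 11 sterol and fatty acid genes 6 were higher in either comparison, among them Fdps (41.7, against 5.8 and 4.83 CPM) and Idi1 (53.0, against 11 and 5.90), enzymes of the mevalonate pathway. Of 15 genes of the unfolded protein response and the secretory route, 8 were higher against cluster 8 and 5 against cluster 0, among them the chaperones Calr (823, against 314 and 289 CPM) and Hsp90b1 (658, against 247 and 261). Against the other tumour cells of the same population, fewer were called. Of the glycolysis genes, 5 of 14 were higher in fasted, 5 of 16 in refed and 1 of 16 in ad libitum tumours, beside 2.61%, 3.11% and 1.99% of all genes. Of the unfolded protein response list 3 of 15 and 1 of 15 were higher in fasted and refed tumours, and none was higher and 1 lower in ad libitum tumours. Ldha had log2 ratios of 1.36, 0.75 and 0.55, and Calr 1.05, 0.62 and 0.01, in fasted, refed and ad libitum tumours, and both were called in fasted tumours alone. The amino acid transporter Slc7a5 had 63.4 CPM, against 16.8 and 10.2, and the transferrin receptor Tfrc had 78.4, against 24.4 and 17.7.

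Genes of the cell cycle were higher than in tumour cells of clusters 8 and 0, but not than in the other tumour cells of every feeding population. Of 16 tested replication genes, 14 were higher against cluster 8 and 13 against cluster 0, with medians of 1.57 and 1.55. Of 9 tested mitosis genes, 7 were higher in either comparison (medians 1.34 and 1.30). Among all genes, 4.88% were higher against cluster 8 and 6.96% against cluster 0. Tyms, thymidylate synthase, had 77.5 CPM, against 14.5 and 14, Tk1, thymidine kinase, 48.9, against 2.32 and 3.76, and Birc5, survivin, 71.6, against 11.6 and 12.3. The share of cells with a Top2a UMI, a topoisomerase of dividing cells, was 13 of 84 after thinning (15.5%, 8.51 to 25%), against 8 of 227 (3.52%, 1.53 to 6.83%) and 19 of 330 (5.76%, 3.50 to 8.85%). Thinned tumour cells of cluster 10, the other deep cluster, had a Top2a UMI in 6 of 40 (15%, 5.71 to 29.8%). The Top2a share thus did not set members apart from cluster 10. Against the other tumour cells of the same feeding population, mitosis genes went in opposite directions. In fasted tumours 2 of 10 tested were higher and none lower, in refed tumours 6 of 12 were lower and none higher, and in ad libitum tumours 10 of 15 were lower and none higher. The shares over all genes were 2.61% higher in fasted, and 9.91% and 8.52% lower in refed and ad libitum tumours. The other ad libitum cells were 37, with a median of 3100 UMIs, and 1 cell held 75012 of their 343756 UMIs. Single deep cells thus weigh much in that group. Top2a had 69.7 CPM in refed members, against 218 in other refed tumour cells, and was lower (log2 ratio -1.58). Of the replication genes, 6 of 17 were higher in fasted, 1 of 16 was higher and 1 lower in refed, and none of 17 was called in ad libitum tumours. After thinning, an Mki67 UMI was found in 1 of 84 members, against 2 of 227 cells of cluster 8 and 7 of 330 of cluster 0, where no difference was detectable at this depth. In tumour cells of cluster 10 it was found in 2 of 40. Against the singlets of all other clusters, bone marrow cells included, 5 of 12 tested mitosis genes were lower, beside 13.9% of all genes. The median of the list was -0.82, but it was 0.23 after thinning and 0.22 against tumour cells alone.

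Among the groups of lower genes, targets of glucocorticoid and FOXO signalling stood lowest against cluster 8. Of 11 tested, 7 were lower and none higher (median -1.57), and against cluster 0 it was 9 of 12 (median -2.05). Tsc22d3, induced by glucocorticoids, had 83.8 CPM, against 342 and 427, and Txnip, an inhibitor of glucose uptake, had 46.2, against 108 and 177. Il7r, the interleukin-7 receptor chain, had no UMI and was at least 17.9-fold lower than in cluster 8 and 21.7-fold lower than in cluster 0. Of the IL-2 and STAT5 response, 5 of 13 tested genes were lower against cluster 8 and 11 of 15 against cluster 0, among them Bcl2, which protects from cell death (199, against 593 and 831 CPM), and Pim1, a kinase (174, against 427 and 1073). Smad7, which dampens transforming growth factor beta signals, had 136 CPM, against 343 and 469. Of 12 trafficking and adhesion genes, 3 were lower against cluster 8 and 8 against cluster 0. The lower shares over all tested genes were 5.14% against cluster 8 and 15.5% against cluster 0. Against cluster 0 the immediate early gene Junb had 796 CPM, against 3263, and was lower (log2 ratio -2.03). Ribosomal RNA-prone transcripts made up 0.849% of UMIs in tumour members, against 1.61% and 2.13%, and ribosomal protein genes 34%, against 36.5% and 25.3%. With totals free of ribosomal protein and mitochondrial genes, 317 genes were higher and 424 lower against cluster 8. The part of the ribosomal RNA-prone transcripts was not tested.

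**Figure D4:**
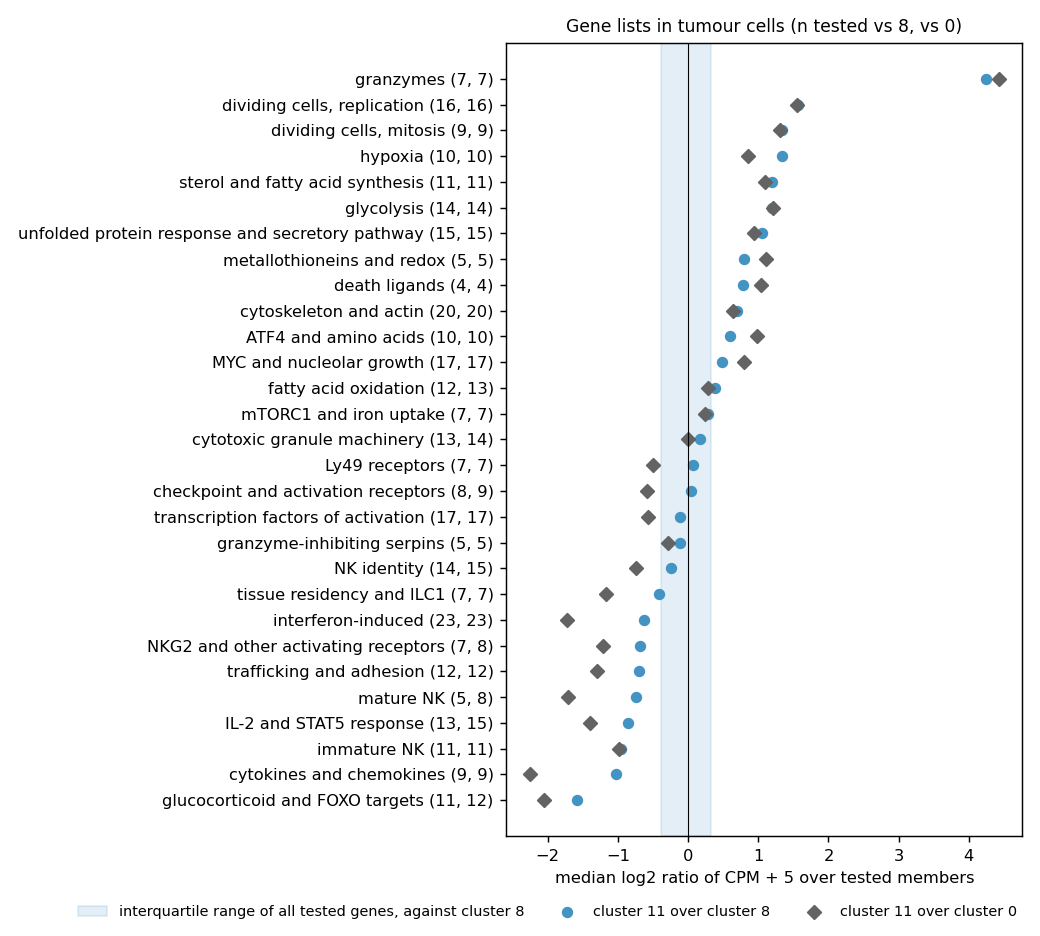
Median log2 ratio of the tested members of each gene list in tumour cells, cluster 11 over cluster 8 (blue circles) and over cluster 0 (grey diamonds); the band covers the interquartile range of all tested genes against cluster 8. Granzymes stand at 4.24 and 4.43, replication genes at 1.57 and 1.55, and glucocorticoid and FOXO targets at -1.57 and -2.05.

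The comparison was repeated within each feeding population, against the other tumour cells of that population. Gzmc had 28483 CPM in fasted members against 1745 in other fasted tumour cells (log2 ratio 4.02), 32614 against 3138 in refed ones (3.38), and 31096 against 15110 in ad libitum ones (1.04). Gzmd was higher in fasted (2227 against 47.9 CPM, 5.40) and refed members (2669.5 against 28.8, 6.30). In ad libitum tumours it had 4377 CPM in members and 3933 in the 37 other cells (0.15). Gzme there had 1609 CPM against 2092 (-0.38). Of the 343756 UMIs of those 37 cells, 75012 were from the deepest cell. In the ad libitum tumour, 6 of the 37 other cells had Gzmc at 1% of UMIs or more and 4 of the 6 had Gzmd, 3 of which belonged to cluster 10. Ccl5 was lower in fasted (161 against 8663 CPM), refed (508 against 4683) and ad libitum members (158 against 4113), and Klf2, Cxcr4 and Ifit3 were lower in all 3 as well. Of the 12 genes highest against cluster 0, 9 had the same direction in all 3 populations, the exceptions being Gzme, Gzmg and Ifitm2, and of the 12 lowest all 12 had. Of the 12 highest against cluster 8, 7 did so (not Gzme, Gzmg, Ifitm1, Ifitm2 and Basp1), and 11 of the 12 lowest (not Itgb7). Against cluster 0, 5 of the 12 highest and 10 of the 12 lowest were called in all 3 populations. Against cluster 8 it was 3 and 8. These genes were ranked on the same members, and the other tumour cells include those of clusters 0 and 8. The agreement is thus a description and not a separate check. In fasted tumours alone, 2.61% of all tested genes were called higher and 11.3% lower. These shares were 3.11% and 9.91% in refed tumours alone, and 1.99% and 8.52% in ad libitum tumours alone.

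Within the cluster, feeding was not part of the choice of members. The populations are 1 sample each, and the ad libitum population has 9 cells. Between fasted and ad libitum members, 121 of 4895 tested genes were higher (2.47%) and 118 lower (2.41%), and with TMM factors 152 and 94. Without the highest cell of each gene the split became 238 and 32, and in cells thinned to 1500 UMIs it was 10 and 74. Between fasted and refed members, 59 of 4865 were higher (1.21%) and 98 lower (2.01%). With TMM factors these were 82 and 74, without the highest cells 94 and 41, and thinned 20 and 79. The counts and their balance thus hang on few cells.

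The levels of the leading granzyme overlapped between the feeding populations. Gzmc had 28483 CPM in fasted members, 32614 in refed and 31096 in ad libitum members, and its median per cell was 23146, 32698 and 25845 CPM. The ranges, 12217 to 100784, 8626 to 123970 and 12617 to 48983 CPM, overlapped. Gzmd had 2227, 2669.5 and 4377 CPM in the same order and was not called between fasted and ad libitum members (log2 ratio -0.97, and -0.46 without the highest cells). In the 9 ad libitum members, Gzmd was found in 7 and Gzme in 6, and 1 cell gave 52.2% of the Gzmd UMIs. Of the 7 tested granzymes Gzmg alone was called. It had 277 CPM in fasted, 678 in refed and 26.3 in ad libitum members, and 1 cell gave 70.5%, 79.7% and 66.7% of these UMIs. The 4 spleen members had Gzmc at 9867 to 30515 CPM, Gzmd in 2 cells, and Ccl5 at 3279 CPM over their sum, above each tumour population.

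**Figure D5:**
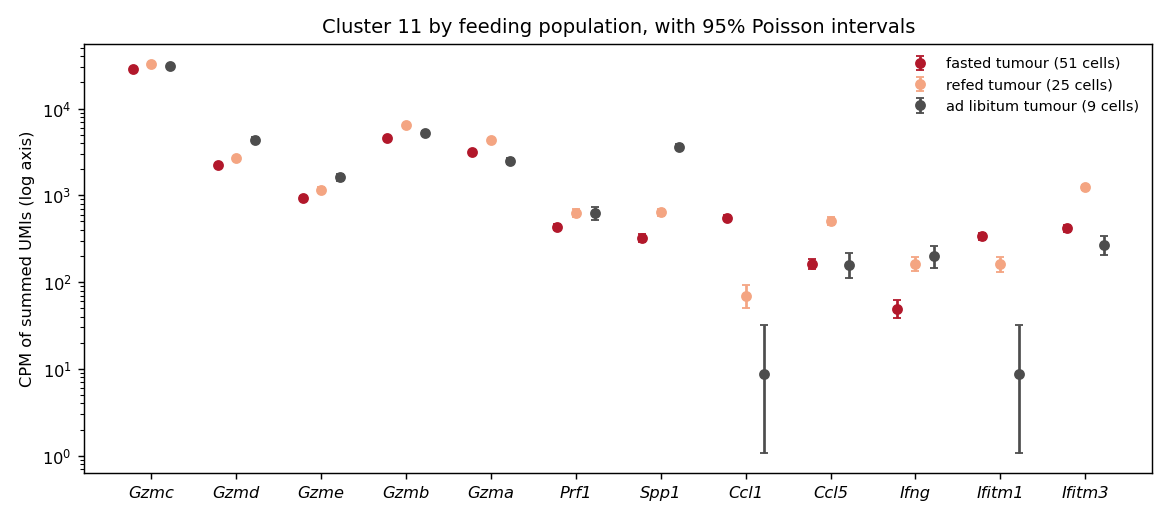
CPM (log axis) of 12 genes in cluster 11 cells of fasted, refed and ad libitum tumours, left to right, with 95% Poisson intervals that cover counting error only. Gzmc lies between 28483 and 32614 CPM, while Spp1, Ccl1 and Ifitm1 spread widely over the 3 populations.

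Several of the genes that differed most between feeding populations were cytokines. Spp1 had 323 CPM in fasted and 638 in refed members, against 3640 in ad libitum members. It was lower in fasted than in ad libitum members (log2 ratio -3.47), with 1 ad libitum cell giving 56.1% of its UMIs, and remained so without the highest cells (-2.84). In ad libitum cells Spp1 ran from 0 to 466 UMIs. Ifng had 49.5 CPM in fasted and 163 in refed members, against 197 in ad libitum members (fasted over ad libitum -1.89, fasted over refed -1.62). Among refed members 1 cell had 44 Ifng UMIs and the next highest 15. Ccl1 had 554 CPM in fasted, 69.7 in refed and 8.77 CPM (2 UMIs) in ad libitum members, where 1 fasted cell held 42.7% of the UMIs. Ccl5 had 161 CPM in fasted and 158 in ad libitum members, and 508 in refed members (fasted over refed -1.62). Among refed members 1 cell had 123 Ccl5 UMIs and the next highest 60. Cxcl10, an interferon-induced chemokine, had 308 CPM in fasted and 30.7 in ad libitum members, with 40.9% of the fasted UMIs in 1 cell. Ly6c2, a Ly6 surface antigen, had 302 CPM in fasted members, against 48.2 in ad libitum members. Klra5, a Ly49 receptor, had 89.3 CPM in fasted members, and was at least 6.79-fold higher than in ad libitum members, where it had no UMI. That bound covers counting error only, and most fasted members had no Klra5 UMI either. The highest fasted cells had 26, 19, 17, 17 and 16 UMIs.

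Other named genes rested on single cells. Of the 8 genes lowest in fasted against ad libitum members, Serpinb1a (100%), Cd3d (93.3%) and Mest (90.9%) had most of their ad libitum UMIs in 1 cell, and Klra1 82.8%, whose ratio was -1.89 with that cell and -0.04 without the highest cells. Of the 8 lowest against refed members, Lyz2, Il1b, Cd74, H2-Eb1 and H2-Aa, genes of macrophages and antigen-presenting cells, had 96.4 to 100% of the refed UMIs in 1 cell. The summed macrophage markers were 14.3 CPM in fasted, 375 in refed and 8.77 in ad libitum members, and all the refed UMIs of that list were from 1 cell. Without the highest cells, Lyz2 had a ratio of 1.05 and Cd74 one of 2.09. Genes that did not rest on 1 cell were Pdcd4, a translation inhibitor, with 206 CPM in fasted and 71.2 in refed members, and Nrgn, a calmodulin-binding protein, with 180 and 63.5. The histone genes Hist1h1b (207 against 12.4 CPM) and Hist1h2ap (58.5 against 7.74) were higher in fasted than in refed members, but leaned on few cells. The highest fasted cells had 107, 56, 35, 31 and 24 Hist1h1b UMIs, and the next highest had 4. The same cells had 18, 16, 16, 7 and 9 UMIs of Hist1h2ap. Of 16 replication genes 1 was higher and none lower, beside 1.21% and 2.01% of all genes.

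Few members of the gene lists were called between the feeding populations. Against refed members, 4 of 10 tested hypoxia genes and 4 of 14 sterol and fatty acid genes were lower in fasted members, with none higher, at medians of -0.47 and -0.61 beside -0.08 over all genes. In that comparison 2.01% of all tested genes were lower. Ero1l had 65.3 CPM in fasted members against 297 in refed ones, with 74.5% of the refed UMIs in 1 cell. Scd2, a fatty acid desaturase, had 25.5 CPM in fasted, 72.8 in refed and 96.5 in ad libitum members, and was lower in fasted members in both comparisons (-1.35 and -1.73). Asns, asparagine synthetase, had 36.8 CPM in fasted, 15.5 in refed and 8.77 in ad libitum members, and was higher in fasted members in both comparisons (log2 ratios 1.03 and 1.6). The last rests on 2 ad libitum UMIs, with an interval of 0.12 to 2.83. Of 16 glycolysis genes, 2 were lower in fasted than in refed members and 1 lower than in ad libitum members, and Slc16a3 was in both counts. The lower shares over all genes were 2.01% and 2.41%.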

How the data were processed

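Single NK cells were sequenced from 10 hashtagged populations in 1 lane. The values are UMI counts as the authors deposited them, made with seqc (per the labels' protocol). The submitters' processing notes name mm10. The deposited cluster numbers, hashtag calls and tag list were used as they stand. The sources used here do not state how cells were clustered or doublets called. UMIs were summed per group, scaled to CPM and compared as log2 ratios of CPM + 5, with exact binomial (Clopper-Pearson) intervals. Intervals and limits cover counting error only. Depth and the number of cells are given with the results. The RNA and hashtag libraries were joined by cell barcode. Of the barcodes, 13085 were in both the matrix and the hashtag calls. Doublets by hashtag call were left out. Named genes were the 12 highest and 12 lowest ratios between clusters and the 8 highest and lowest within the cluster, among genes at 50 CPM or more whose interval left out equality, with the granzymes, the given markers and, of each list, its 4 most abundant and its called members. Ranked genes left out T cell receptor, immunoglobulin, haemoglobin, mitochondrial and ribosomal protein genes, and gene models with no name. The members and lists were chosen with earlier results of these data known. Of 16789 symbols, 16278 matched GENCODE M21. The tools were edgeR 4.0.16 (TMM factors), scanpy 1.11.5 (Scrublet), pandas 2.3.3, matplotlib 3.10.9, scipy 1.17.1, numpy 2.4.6 and Python 3.11.15. Scrublet predicted 0 doublets and so did not work as a caller. The interval script was tested on simulated data. Alternatives were TMM factors, other totals, pseudocounts and minimum levels, equal weight per cell, thinning, and cells, doublets or populations left out or kept.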

Additional observations from a re-analysis of the deposited data

Results flagged for a closer look

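Some of the named genes and list members were called higher in cluster 11 than in the other tumour cells of the same population in 1 feeding population, and lower in another. The values are log2 ratios. The differences between the populations were not tested, since each is 1 sample, and they were picked out because they ran in opposite directions. The ad libitum ratios set members against 37 other cells, of which 1 held 75012 of 343756 UMIs.

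Gzmg had ratios of 5.20 in fasted and 4.21 in refed tumours, and -3.59 in ad libitum tumours, where members had 26.3 CPM (6 UMIs). In cluster 11, 1 fasted cell gave 70.5% of the fasted Gzmg UMIs. Ifitm1 had a ratio of 2.56 in fasted tumours, 0.12 in refed ones (interval -0.28 to 0.53, no direction) and -4.07 in ad libitum ones, where members had 8.77 CPM (2 UMIs, interval -5.29 to -2.61). In cluster 11, 1 fasted cell gave 54.5% of the fasted Ifitm1 UMIs.

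Of the genes of dividing cells, Birc5 had ratios of 1.35, -0.86 and -1.27 in fasted, refed and ad libitum tumours, Rrm2, a subunit of ribonucleotide reductase, 1.01, -1.37 and -0.17, and Hist1h1b 1.15, -3.81 and -1.96. Ccnb2, a cyclin of mitosis, had 1.04, 0.40 and -1.99, the last from 3 UMIs in members (interval -3.34 to -0.55). The fasted Hist1h1b sum leaned on few members, the highest having 107 and 56 UMIs.

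Of the genes of antigen-presenting and myeloid cells, 83.7 to 100% of the refed UMIs in cluster 11 were from 1 cell in each gene. H2-Ab1 had ratios of -2.94, 1.92 and -3.36 in fasted, refed and ad libitum tumours. H2-Eb1 had -4.84, 1.12 and -4.82, the last from 3 UMIs in members (interval -6.07 to -3.53). Lyz2 had -4.87, 2.19 and -5.15, the last from 1 UMI (interval -6.04 to -3.47). H2-Aa had -4.27, 1.69 and -6.64, where the ad libitum members had no UMI and the value depends on the pseudocount.

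Hspa1b, a heat shock protein, had ratios of -1.93, 1.65 and -1.33, the last from 3 UMIs (interval -2.75 to 0.18), with 97.2% of the refed UMIs in 1 cell. Serpinb9b, a serpin, had 0.82, -1.25 and 1.31. Cd3d had -1.71 from 2 UMIs (interval -2.06 to -0.98) in fasted, -2.22 from 3 UMIs (-3.03 to -1.11) in refed and 1.86 in ad libitum tumours.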

How the results depend on the processing

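The number of called genes moved by more than 1.5 times from its main value in 14 of 54 alternatives. With a pseudocount of 20 CPM the counts were 485 against all other clusters (1003 in the main comparison), 590 against cluster 0 (1193), 227 against cluster 8 (497), 108 between fasted and ad libitum members (239) and 51 between fasted and refed members (157). With a minimum of 50 CPM, which tests fewer genes, they were 564, 711, 273, 112 and 54 in the same order. Against all other clusters the count was 649 with called doublets kept and 589 among tumour cells alone, and thinning left 84 between fasted and ad libitum and 99 between fasted and refed members. Against all other clusters, the median of the mitosis list turned positive after thinning (0.23) and among tumour cells alone (0.22), where Ncr1 also turned positive (0.37) and the serpin and tissue residency lists turned negative (-0.059 and -0.19). Between fasted and ad libitum members, Jdp2 turned positive after thinning (1.85), and Cd3d and Mest without cells that carried UMIs of other cell types (0.26 and 0.33). Between fasted and refed members, Serpinb9b and Hist1h2ae turned negative after thinning (-0.084 and -1.74). Lyz2 and Cd74 turned positive without the highest cell of each gene (1.05 and 2.09), and Lyz2, Il1b, H2-Ab1 and Gzmg without cells that carried UMIs of other types (1.25, 0.26, 0.89 and 1.14). The cause was not tested. The rule on other-type UMIs, chosen after the data were seen, leaves T cell receptor genes out and removes 19 of 89 members. With those genes it would remove 85 of 89, so it was not run, and neither was a comparison of tumour with spleen members, of which there were 4. Leaving out members under 10000 UMIs, also added after the data were seen, gave 1020, 1215 and 509 called genes against all others, cluster 0 and cluster 8. Of other values, 1028 of 1572 for genes and 1328 of 1512 for list medians stayed within the counting interval of a gene or, for a list, the typical one of its members. No paired analysis was possible because each population is 1 sample with no replicate number. The 9 ad libitum members limit what can be seen within the cluster.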
